A study of Mus musculus with 6 samples.

Results

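The genes described here are direct targets of the transcription factor p53, together with p53 itself, in B16F10 mouse melanoma cells. They were chosen by symbol, from a list of 10, namely Trp53, which encodes p53, and its targets Cdkn1a, Mdm2, Ccng1, Bbc3, Pmaip1, Gdf15, Sesn1, Trp53inp1 and Phlda3. The annotation of the array paired 8 of the 10 with a feature, out of 19505 genes measured, and each of the 8 had 1 feature. Trp53 and Gdf15 were not analysed here, so the account covers targets of p53 and not the p53 transcript. B16F10 is a pigmented melanoma line of C57BL/6 origin. All cells grew in RPMI1640 and, after seeding, were kept for 48 h in 1 of 3 conditions with 2 arrays each. The control cells received medium, and the treated cells received medium with 2.5 µM or with 40 µM of a compound labelled SQ-diEG or di-sq. RNA from each sample was hybridised to a single-colour Affymetrix array, and the log2 levels below were deposited after RMA (robust multi-array averaging). The labels do not say whether arrays of 1 group stem from separate cultures, and p-values therefore reflect a spread that may be technical. In RNA from bulk cells, fewer cells of a type and less RNA per cell cannot be told apart.

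In unstressed cells p53 is made continuously and is removed by the ubiquitin ligase Mdm2, which is itself a p53 target, so that the pair forms a feedback loop. DNA damage, nucleolar stress and oncogene signalling stabilise the protein, which then binds DNA as a tetramer and raises genes of cell cycle arrest, DNA repair, antioxidant defence and apoptosis. Much of its activity is set at the level of the protein, so the transcripts of its targets are the usual readout of its activity on an expression array. p53 recognises a decamer of purines and pyrimidines around a central core, and a typical binding site holds a pair of decamers next to each other.

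RefSeq promoter windows of build GRCm38.p6, each with 250 bases before a start site and 50 bases from it, were found for 6 of the 8 measured genes, 10 windows in all. Bbc3 had 3 windows, Cdkn1a and Sesn1 had 2 each, and Ccng1, Mdm2 and Phlda3 had 1 each. They were searched for exact matches to the p53 consensus decamer, which reads the same on both strands. A decamer was present in 4 of the 10 windows, 1 each for Cdkn1a, Ccng1, Mdm2 and Sesn1, and in 8.36% of all 32851 windows. These 4 windows are shown because they place the letters that p53 reads beside the genes whose levels follow, with the decamers in capitals.
Cdkn1a, chr17:29090729-29091028, plus strand: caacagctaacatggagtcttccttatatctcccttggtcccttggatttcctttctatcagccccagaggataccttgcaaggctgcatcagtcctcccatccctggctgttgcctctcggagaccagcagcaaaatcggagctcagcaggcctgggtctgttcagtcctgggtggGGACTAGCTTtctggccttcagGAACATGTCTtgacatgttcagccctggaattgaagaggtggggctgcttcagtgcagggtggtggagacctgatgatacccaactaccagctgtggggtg
Ccng1, chr11:40755237-40755536, minus strand: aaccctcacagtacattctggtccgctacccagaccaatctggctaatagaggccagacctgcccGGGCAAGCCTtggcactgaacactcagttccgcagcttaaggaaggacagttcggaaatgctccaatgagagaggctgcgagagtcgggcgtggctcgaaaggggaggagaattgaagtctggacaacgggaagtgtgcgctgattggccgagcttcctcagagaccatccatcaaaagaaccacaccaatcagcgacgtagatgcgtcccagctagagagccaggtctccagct
Mdm2, chr10:117710709-117711008, minus strand: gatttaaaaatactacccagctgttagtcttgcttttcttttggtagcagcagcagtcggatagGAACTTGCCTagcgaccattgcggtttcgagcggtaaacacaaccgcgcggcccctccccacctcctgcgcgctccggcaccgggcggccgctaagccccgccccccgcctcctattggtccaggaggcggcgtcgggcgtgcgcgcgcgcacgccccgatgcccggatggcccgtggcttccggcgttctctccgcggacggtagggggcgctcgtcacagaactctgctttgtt
Sesn1, chr10:41887189-41887488, plus strand: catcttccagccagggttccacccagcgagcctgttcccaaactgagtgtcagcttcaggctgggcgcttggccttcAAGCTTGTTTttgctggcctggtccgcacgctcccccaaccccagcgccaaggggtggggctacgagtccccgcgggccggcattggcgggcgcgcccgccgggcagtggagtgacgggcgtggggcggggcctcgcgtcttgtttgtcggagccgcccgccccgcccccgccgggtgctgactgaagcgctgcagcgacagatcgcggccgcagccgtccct
The Cdkn1a window shown held decamers from base -73 to -64 and from -51 to -42, counted from the start site of that window. The other Cdkn1a window, at chr17:29093519-29093818, and the other Sesn1 window held none. The Ccng1 decamer lay from -185 to -176, that of Mdm2 from -186 to -177 and that of Sesn1 from -173 to -164. A pair of decamers with at most 1 mismatch in all and at most 13 bases between them was present in the windows of Cdkn1a and Ccng1, and in 0.627% of all windows. In Ccng1 the pair was contiguous, from -195 to -176 with 1 mismatch, while in Cdkn1a the exact pair had 12 bases between its decamers and a contiguous pair from -51 to -32 had 1 mismatch. A match in these letters is a description of the sequence and does not show that p53 was bound.

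The median over all features lay between 5.92 and 5.98 on the 6 arrays, but their spread differed. The interquartile range over genes was 5.20 on replicate 1 at 2.5 µM and 5.43 on replicate 1 at 40 µM. On the other 4 arrays it was 4.90 to 4.94. Background was set by the 5222 negative control features, at their 95th percentile on each array, between 9.80 and 10.06, and 4147 genes had a mean above its average of 9.94. The 2 arrays with the lowest spiked controls, replicate 1 at 2.5 µM and replicate 1 at 40 µM, were set apart from the other 4 by rank. The hybridisation controls averaged 10.4 and 10.3 there, against 10.8 to 11.2 elsewhere, and the poly-A controls 5.65 and 5.63 against 6.35 to 7.42. Replicate 2 at 40 µM had the highest values of both, at 11.2 and 7.42, where the control arrays had 10.9 and 6.35 to 6.39. It was not set apart. All 7 melanoma cell markers, among them Tyr, Mitf and Sox10, were above background on every array. None of the measured markers of fibroblasts, keratinocytes, leukocytes and endothelium reached it, with means of at most 5.66.

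Cdkn1a and Ccng1 belong to the cell cycle arm of the response. Cdkn1a encodes p21, the inhibitor of cyclin-dependent kinases through which p53 halts cells in G1. Its log2 level was 14.32 and 14.30 in control, 14.60 and 14.08 at 2.5 µM, and 14.49 and 14.21 at 40 µM, for replicates 1 and 2. The transcript was thus well above background everywhere, and at both doses replicate 1 lay above the controls and replicate 2 below them. The mean was higher than control by 0.03 at 2.5 µM and by 0.04 at 40 µM on the log2 scale, each with a standard error of 0.22. The 95% confidence interval at 40 µM ran from -0.48 to 0.56, which corresponds to 0.72-fold to 1.48-fold, and at 2.5 µM from -0.49 to 0.55. Neither comparison passed the test over all genes (limma, adjusted p = 0.946 and 0.972). With the 2 arrays of low spiked controls as a block, the differences were -0.17 at 2.5 µM and -0.16 at 40 µM. Without those 2 arrays they were -0.23 and -0.10, from a lone array at each dose, and the former passed, as did many other genes.

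Ccng1 had the highest mean difference from control among the measured targets at both doses with all 6 arrays and no block. At 40 µM it did not once the array split was a block, or once replicate 1 at 40 µM or replicate 2 of control was left out. Without replicate 2 of control it was 0.57, beside 0.78 for Sesn1. Ccng1 encodes cyclin G1, a cyclin that recruits a protein phosphatase to Mdm2 and thereby feeds back on p53. Its log2 level was 14.48 and 14.26 in control, 15.05 and 14.94 at 2.5 µM, and 15.51 and 14.60 at 40 µM. All 4 treated arrays lay above both controls, and the groups did not overlap at either dose. Of all genes, 27.1% at 2.5 µM and 22.2% at 40 µM were higher without overlap, and of genes above background 34.0% and 26.2%. The share at both doses together was not counted. The mean of Ccng1 was 1.54-fold higher at 2.5 µM, a log2 difference of 0.62 with a standard error of 0.29 (95% confidence interval -0.06 to 1.31). At 40 µM it was 1.602-fold higher, a log2 difference of 0.68 with a standard error of 0.29 (95% confidence interval -0.005 to 1.37). Neither difference passed over all genes (limma, adjusted p = 0.543 at 2.5 µM and 0.417 at 40 µM). Between the doses the difference was 0.06 (standard error 0.29), and its interval ran from -0.63 to 0.74. Under the array split block it was 0.37 at 2.5 µM and 0.43 at 40 µM, where that of Sesn1 was 0.58 and that of Phlda3 -0.55. The value at 40 µM rested on replicate 1, which had low spiked controls. Without it the difference was 0.23, beside 0.56 for Sesn1 and -0.58 for Phlda3, and without replicate 2 it was 1.13 and passed (limma, adjusted p = 0.0197) in a fit in which 11.5% of all genes passed. Ccng1 also passed at 2.5 µM without both arrays of low controls, at 0.57 (limma, adjusted p = 0.00514), in a fit in which 20.5% of all genes passed and the error came from the 2 controls alone.

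**Figure D1:**
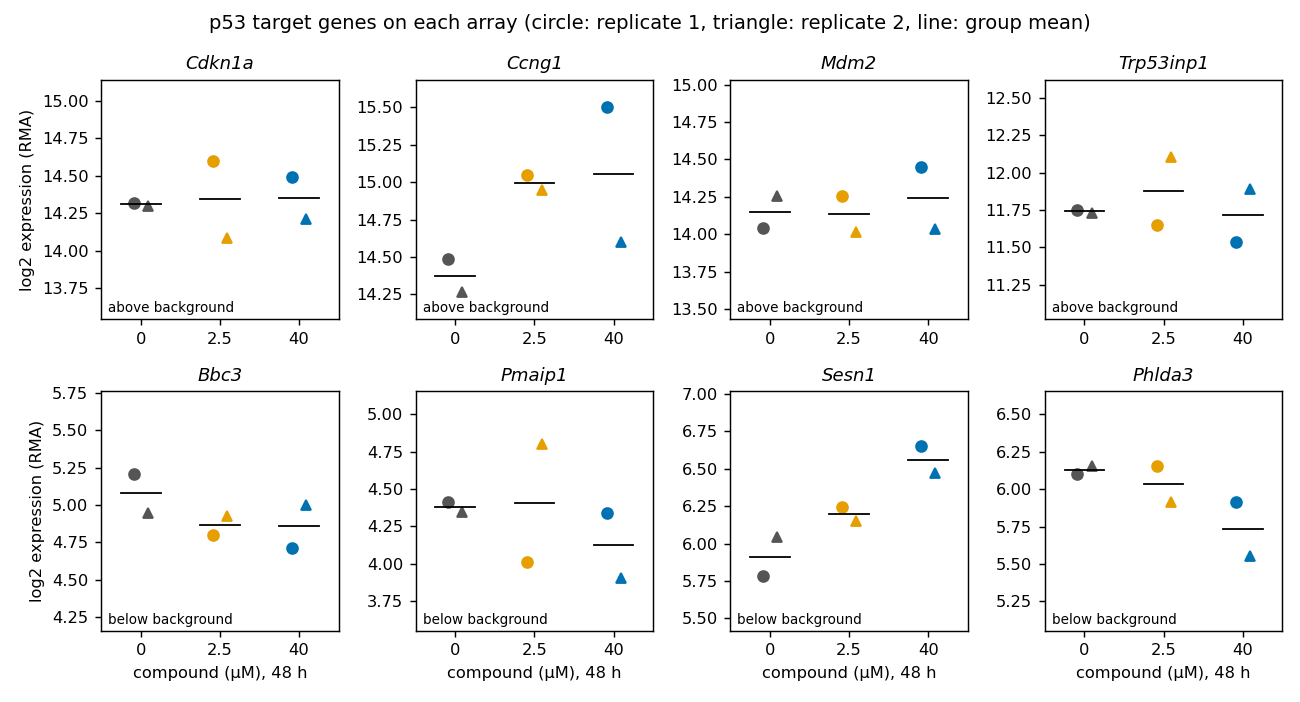
Log2 expression (RMA) of the 8 measured p53 targets at 0, 2.5 and 40 µM, with 1 point per array and a line at each group mean (n = 2); every panel spans the same range of 1.6 on the log2 scale. Ccng1 lies above control on all 4 treated arrays, while Cdkn1a and Mdm2 fall on either side of the control mean at both doses; the lower 4 genes lie below background.

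Mdm2 and Trp53inp1 act on p53 itself. Mdm2, the ubiquitin ligase that removes p53, had log2 levels of 14.04 and 14.25 in control, 14.25 and 14.02 at 2.5 µM, and 14.45 and 14.04 at 40 µM. The groups overlapped in every comparison, and as for Cdkn1a replicate 1 was the higher array at both doses. Its difference from control was -0.01 at 2.5 µM and 0.10 at 40 µM, each with a standard error of 0.21 (limma, adjusted p = 0.991 and 0.860). The confidence interval at 40 µM ran from -0.39 to 0.59, or from 0.76-fold to 1.502-fold. Its direction at 40 µM turned with the array split as a block, to -0.07.

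Trp53inp1 encodes a nuclear protein that promotes the phosphorylation of p53 towards apoptosis and that also takes part in autophagy. Its log2 levels were 11.75 and 11.73 in control, 11.65 and 12.10 at 2.5 µM, and 11.54 and 11.89 at 40 µM. Here the order of the arrays was the opposite of that of Cdkn1a and Mdm2, with replicate 1 below and replicate 2 above the controls at both doses. The differences from control were 0.13 at 2.5 µM and -0.03 at 40 µM, each with a standard error of 0.23, and neither passed (limma, adjusted p = 0.867 and 0.969). The spread of the 2 arrays at 40 µM, an SD of 0.25, exceeded both differences. Without both arrays of low controls the differences were 0.36 and 0.15, from a lone array at each dose, and the former passed, as did many other genes.

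Bbc3 and Pmaip1 belong to the apoptotic arm of the response and were not above background on any array. Bbc3 encodes PUMA and Pmaip1 encodes NOXA, both BH3-only proteins that neutralise antiapoptotic members of the BCL2 family. Bbc3 had log2 levels of 5.21 and 4.95 in control, 4.80 and 4.93 at 2.5 µM, and 4.71 and 5.002 at 40 µM. Both values at 2.5 µM were below the controls, and those at 40 µM overlapped them. Pmaip1 had 4.41 and 4.35 in control, 4.01 and 4.80 at 2.5 µM, and 4.34 and 3.91 at 40 µM. The 2 arrays at 2.5 µM enclosed the controls, and both at 40 µM lay below them. Every value of both genes was also below the median of the negative control features of their array, which ranged from 5.98 to 6.10. Differences between such values are differences within background.

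Sesn1 and Phlda3 link p53 to growth signalling. Sesn1 encodes sestrin 1, which restrains mTORC1 and supports antioxidant defence, and Phlda3 encodes a pleckstrin homology domain protein that competes with the kinase AKT for membrane lipids. Sesn1 had log2 levels of 5.78 and 6.04 in control, 6.25 and 6.15 at 2.5 µM, and 6.65 and 6.47 at 40 µM. The 3 groups did not overlap and were ordered by dose, with control lowest. Of all genes, 22.2% were higher without overlap at 40 µM against control, 27.1% at 2.5 µM and 12.4% between the doses. The share of genes ordered over all 3 groups was not counted. The mean of Sesn1 at 40 µM was 1.56-fold that of control, a log2 difference of 0.65 with a standard error of 0.22 (95% confidence interval 0.12 to 1.17). Over all genes it missed the threshold (limma, adjusted p = 0.368). At 2.5 µM the difference was 0.29 with the same standard error (adjusted p = 0.698), and between the doses it was 0.36 (adjusted p = 0.866). Every Sesn1 value lay below 9.80, the lowest background level of an array. Phlda3 had 6.10 and 6.16 in control, 6.16 and 5.92 at 2.5 µM, and 5.92 and 5.55 at 40 µM. Both arrays at 40 µM were below both controls, and the nearest arrays of the 2 doses were alike to 2 decimals. Its difference at 40 µM was -0.39 with a standard error of 0.24 (limma, adjusted p = 0.512), again between values at background, and without replicate 2 at 40 µM it was -0.21. Without both arrays of low controls it was -0.58, from a lone array at each dose, and passed, as did many other genes. Levels of different genes are not set against each other here, since features of an array differ in their response.

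Read together for 40 µM against control, 4 of the 8 genes had a higher mean and 4 a lower one, with a median log2 difference of 0.01 beside -0.01 over all 19505 genes. Of the 4 above background, Cdkn1a, Mdm2, Ccng1 and Trp53inp1, 3 were higher and 1 lower. Their median was 0.07, beside 0.05 over the 4147 genes above background. None of the 8 passed over all genes, and neither did any other gene (0% of genes, limma, smallest adjusted p of a target 0.368). At an unadjusted p under 0.05 there was 1 of the 8, Sesn1, where 12.0% of all genes lay under it. The groups did not overlap for Ccng1 and Sesn1 with higher values and for Pmaip1 and Phlda3 with lower values, 2 of 8 in each direction, where 22.2% of all genes were higher and 26.3% lower in that way. These shares are near those of all genes. Of the 4 targets above background only Ccng1 did not overlap, on the higher side, as for 26.2% of the genes above background. The confidence intervals lay within a 2-fold change in either direction for 6 of the 8, and for 12369 of all 19505 genes. The exceptions were Ccng1 and Sesn1, whose intervals reached beyond a 2-fold rise. Above background this held for 3 of the 4 targets and for 2930 of the 4147 genes. Bbc3, Pmaip1 and Phlda3 lay at background, so their intervals do not bound a change in the transcript.

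For 2.5 µM against control, 5 of the 8 had a higher mean and 3 a lower one, and the median was 0.03 beside 0.01 over all genes. Of the 4 above background 3 were higher and 1 lower, with a median of 0.08 beside 0.06 over genes above background. No target and no other gene passed (0%, limma), and at an unadjusted p under 0.05 there was none of the 8, against 9.62% of all genes. Groups did not overlap for Ccng1 and Sesn1 on the higher side, where 27.1% of all genes did not, and for Bbc3 on the lower side, where 25.9% did not. Of the genes above background, as Ccng1 was, 34.0% did not overlap on the higher side. Intervals lay within a 2-fold change for 7 of the 8, the exception being Ccng1, and for 12932 of all genes. Above background this held for 3 of the 4 targets and for 3115 of the 4147 genes. Both dose comparisons share the control arrays, so the repeated appearance of Ccng1 and Sesn1 is not independent.

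For 40 µM against 2.5 µM, 4 were higher and 4 lower, with a median of 0.001 beside -0.003 over all genes. Of the 4 above background 3 were higher and 1 lower, with a median of 0.03 beside 0.003 over genes above background. None of the 8 passed (0% of all genes, limma). At an unadjusted p under 0.05 there was none of the 8, where 5.61% of all genes lay, and the largest difference was 0.36 for Sesn1. Groups did not overlap for Sesn1 on the higher side, beside 12.4% of all genes, and for Phlda3 on the lower side, beside 16.3%. Intervals lay within a 2-fold change for 7 of the 8 and for 14037 of all genes, and that of Pmaip1 reached from -1.01 to 0.44. Above background this held for all 4 targets and for 3269 of the 4147 genes.

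**Figure D2:**
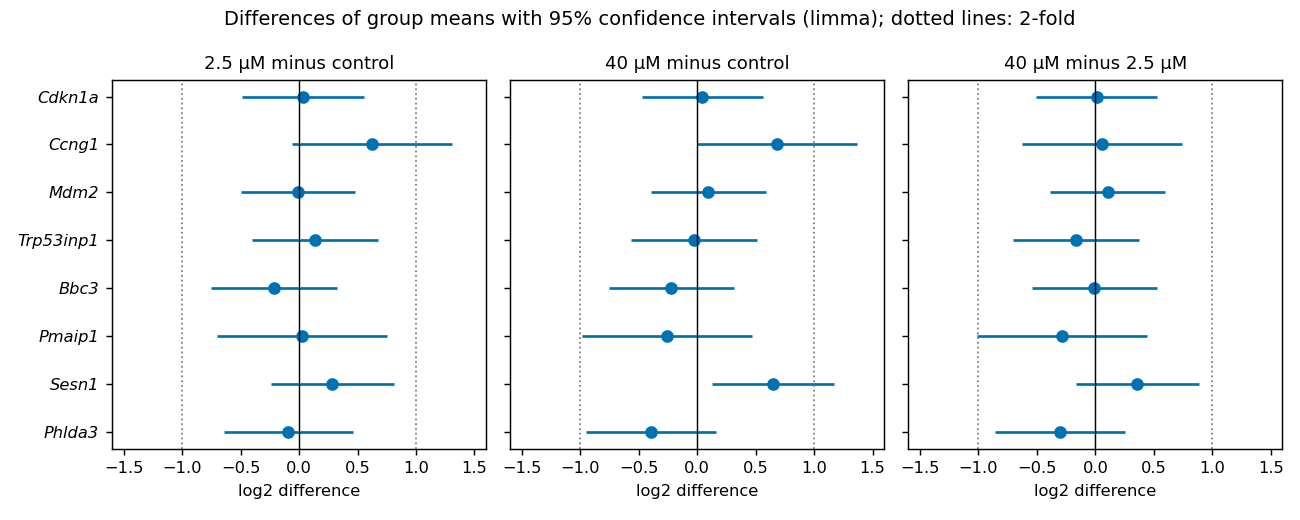
Log2 differences of group means for the 8 measured p53 targets in each comparison, with 95% confidence intervals from limma on 6 arrays; dotted lines mark a 2-fold change in either direction. At 40 µM the intervals of 6 genes stay within the dotted lines, among them Bbc3, Pmaip1 and Phlda3, which lie below background. Those of Ccng1 and Sesn1 reach beyond the upper line.

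By array, the median of the 8 targets against the control mean was 0.07 on replicate 1 and 0.06 on replicate 2 at 2.5 µM, and 0.07 and -0.09 at 40 µM. Over the 4 targets above background, Cdkn1a, Mdm2, Ccng1 and Trp53inp1, it was 0.20 and 0.12 at 2.5 µM and 0.24 and 0.02 at 40 µM. The same median over all genes above background was 0.08 and 0.03 at 2.5 µM and 0.08 and -0.01 at 40 µM. For both sets the arrays of low spiked controls gave the higher value at each dose.

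The rest of the pathway was described by lists of upstream regulators, further targets and downstream genes, and in each list the 2 genes with the highest mean level were named. With all 6 arrays and no block, no gene of any list passed over all genes in any comparison (limma). Without both arrays of low controls, when 19.2% of all genes passed at 40 µM, so did Mdm4, Trp73, Gadd45a, Ei24, Apaf1, Pcna, Tsc2, Sat1, Notch1 and Sesn3 among the named genes of the lists. Without replicate 2 at 40 µM, when 11.5% of all genes passed, so did Zmat3, Gadd45a, Pcna and Sat1. Without both arrays of low controls the differences of Ei24, Pcna and Sat1 at 40 µM were 0.41, -0.26 and -0.75, opposite in sign to those with all 6 arrays. Genes under an unadjusted p of 0.05 at 40 µM, as 12.0% of all genes were, are named with their lists and were picked out after their values were seen. All of these except Gadd45a had a mean below background. The values below are log2 differences of 40 µM from control unless stated otherwise, and the number that follows a difference after the word "with" is its standard error. Of 17 activators of p53, 4 were higher and 13 lower, with a median of -0.08, and the kinases Atm and Atr and the p53 cofactor Ppp1r13b, all lower, were under an unadjusted p of 0.05. Hipk2, a kinase that phosphorylates p53, had a difference of -0.22 (standard error 0.19), which was -0.09 without replicate 1 at 40 µM. Rpl5, a ribosomal protein that binds Mdm2 under nucleolar stress, differed by 0.52 with 0.51, at 15.31 and 13.94 on the 2 arrays at 40 µM against 14.12 and 14.09 in control. Cdkn2a, whose Arf product inhibits Mdm2 and which was singled out after its values were seen, had a mean of 2.98 over the 6 arrays, below the negative control medians. As background, B16 cells are known to have lost this locus. Of 8 inhibitors of p53, 4 were higher and 4 lower, with a median of 0.06. Mdm4, the Mdm2 relative that masks the transactivation domain of p53, was at 13.96 and 13.89 in control, 13.69 and 13.77 at 2.5 µM, and 13.66 and 13.56 at 40 µM. Its groups did not overlap at either dose, as was so on the lower side for 26.3% of all genes at 40 µM and 25.9% at 2.5 µM. The difference of Mdm4 was -0.31 with a standard error of 0.16 (limma, adjusted p = 0.462). Rchy1, a ubiquitin ligase for p53, differed by 0.15 with 0.29. The p53 relatives Trp63 and Trp73 had means below the negative control medians in all groups, and differed by 0.17 with 0.35 and by -0.98 with 0.25, the latter under an unadjusted p of 0.05.

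Of 7 measured further genes of cell cycle arrest, 4 were higher and 3 lower, with a median of 0.21, and Gadd45a and Sfn, both higher, and Rprm, lower, were under an unadjusted p of 0.05. Gadd45a, a damage-induced inhibitor of the mitotic kinase CDK1, was at 11.56 and 11.60 in control, 11.79 and 11.40 at 2.5 µM, and 12.55 and 11.93 at 40 µM. Both arrays at 40 µM lay above the other 4, where 22.2% of all genes were higher than control without overlap and 12.4% higher than 2.5 µM. The difference of Gadd45a from control was 0.66 with a standard error of 0.26 (limma, adjusted p = 0.395). It was 0.35 without replicate 1 at 40 µM (adjusted p = 0.485) and 0.97 without replicate 2 (adjusted p = 0.0364). Zmat3, a p53-induced RNA-binding protein, differed by -0.36 with 0.35, with its arrays at 40 µM at 11.58 and 12.71 on either side of the controls. Of 12 further apoptosis genes 4 were higher and 8 lower, with a median of -0.03. Ei24 and Apaf1, the scaffold of the apoptosome, differed by -0.03 with 0.30 and by -0.30 with 0.19. Of 6 repair genes 4 were higher and 2 lower, with a median of 0.25. Pcna, the sliding clamp of DNA replication, had control levels of 14.10 and 14.17, and reached 15.66 on replicate 1 but 13.88 on replicate 2 at 40 µM. Ercc5, the nuclease that cuts on the 3' side of a DNA lesion, was at 11.85 and 11.87 in control, 12.08 and 12.07 at 2.5 µM, and 12.20 and 12.11 at 40 µM, without overlap of any of the groups. On the higher side 22.2% of all genes did not overlap at 40 µM against control, 27.1% at 2.5 µM and 12.4% between the doses. The difference of Ercc5 was 0.29, standard error 0.17 (limma, adjusted p = 0.504).

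Of 11 measured metabolic targets 4 were higher and 7 lower, with a median of -0.09, and Pank1, higher, was under an unadjusted p of 0.05. Tsc2, a brake on mTORC1, differed by -0.44 with 0.19. Its arrays at 40 µM lay below the controls without overlap, as for 26.3% of all genes, while those at 2.5 µM overlapped them. Sat1, which acetylates polyamines, had control levels of 9.89 and 9.88, and stood at 12.14 on replicate 1 but 9.14 on replicate 2 at 40 µM. Of 7 secreted and surface targets, all below background, 4 were higher and 3 lower, with a median of 0.13. Thbs1 and Notch1 differed by 0.34 with 0.24 and by 0.77 with 0.21, and Notch1 and Igfbp3, the latter lower, were under an unadjusted p of 0.05. Among 12 measured genes that p21 is known to lower through the DREAM and RB complexes, 7 were higher and 5 lower, with a median of 0.09. Plk1, the mitotic kinase, differed by -0.20 with 0.17, or by -0.07 without replicate 1 at 40 µM, and Ccna2, cyclin A2, by 0.11 with 0.27. The median of these genes against control was 0.41 on replicate 1 and -0.12 on replicate 2 at 40 µM, and 0.15 and -0.15 at 2.5 µM. At each dose the higher value was on the array of low spiked controls, which is also replicate 1. The part of those arrays was not tested. Of 6 relatives of the targets, 4 were higher and 2 lower, with a median of 0.04. Cdkn1b, the p27 relative of p21, differed by 0.02 with 0.17, and Sesn3, a relative of Sesn1, by -0.31 with 0.19. At 2.5 µM against control the list medians lay between -0.13 for the arrest genes and 0.19 for the apoptosis genes, apart from -0.40 for the p53 relatives.

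**Figure D3:**
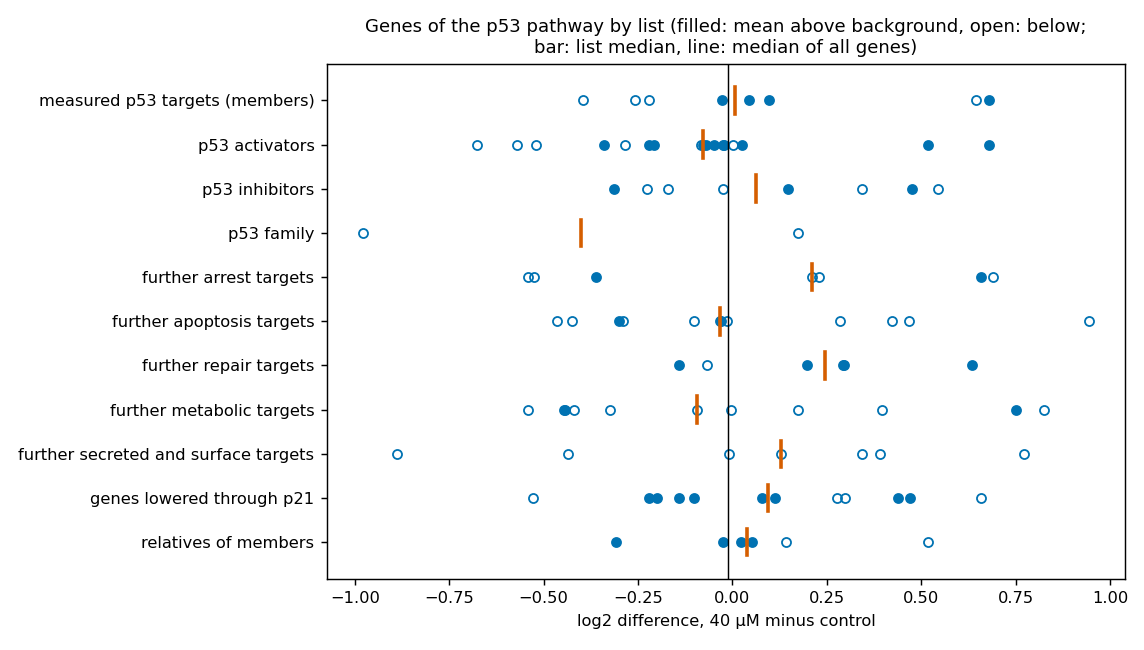
Log2 difference of 40 µM from control for each measured gene of the p53 pathway, by list, with filled points for genes whose mean is above background, open points for the others, an orange bar at the list median and a black line at the median of all genes. Every list except the 2 p53 relatives has a median between -0.09 and 0.25, with genes on both sides of 0.

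The genes most like a target in their course over the 6 arrays were sought among the genes above background. For Cdkn1a these were Dcakd, Phlda1 and Bzw2, with Pearson correlations of 0.989, 0.987 and 0.983 over 6 arrays. Phlda1 had 10.60 and 10.60 in control, 10.96 and 10.16 at 2.5 µM, and 10.86 and 10.45 at 40 µM, so it shared the higher replicate 1 at both doses. For Mdm2 they were Fiz1, Tpx2 and Fgfr1op2, with correlations of 0.977, 0.971 and 0.970. Of 4146 genes compared, 11 exceeded 0.95 for Cdkn1a and 6 for Mdm2. The arrays share the split in spiked controls, and these values are a description of likeness only.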

How the data were processed

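Expression was measured in 6 samples of B16F10 cells, which their titles place in 3 groups of 2; some description fields name other treatments and were not followed. The deposited log2 values were made by the authors with RMA, which subtracts background, quantile-normalizes arrays and summarises probes, per the submitters' processing notes, which name the Expression Console and the Transcriptome Analysis Console of Affymetrix. Software versions, settings and build: not given in the sources used here. On each array 259 to 269 features exceeded 16, the log2 maximum of a 16-bit scan, so an unstated step stretched the scale and folds hold on the deposited scale only.

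Of 28846 features, 6640 were controls, and 19572 of the remaining 22206 had 1 gene symbol. The feature with the highest mean represented a gene, which gave 19505 genes with no filter on level. limma 3.58.1 in R 4.3.3 was fitted across the 6 arrays, with a mean per group, no further term and a prior on the variance that follows the level (3 residual and 4.11 prior degrees of freedom). Two-sided p-values were adjusted by the Benjamini-Hochberg method across the 19505 genes, at a threshold of 0.05. The procedure was tested on simulated data with independent noise for each gene and array. Such data hold no deviation shared across an array, so that test does not cover one. Arrays give no read depth, and their number limits the precision. Named genes were all members, the 2 genes of highest mean in each further list, and the 3 genes best correlated with Cdkn1a and with Mdm2. Cdkn2a, and the list genes under an unadjusted p of 0.05 at 40 µM, were added after their values were seen. The members and lists were chosen with earlier results of these data known. Of the listed pathway genes 9 had no feature under this annotation. Alternatives were another normalization, filters on level, other variance settings, blocks, other features and leaving out arrays.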

Additional observations from a re-analysis of the deposited data

How the results depend on the processing

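No setting that kept all 6 arrays gave a call among the 8 targets, and Ccng1 and Sesn1 lay above control under every alternative run, although Ccng1 moved from 0.62 to 0.37 at 2.5 µM and from 0.68 to 0.43 at 40 µM under the array split block. No gene passed at 40 µM, at 2.5 µM or between the doses under most settings. Exceptions were 3749, 3991 and 2965 genes without both arrays of low controls, with 1 residual degree of freedom, 1 gene between the doses with a block for the array split, and, leaving out single arrays, counts from 0 to 2235 at 40 µM, where 2235 came without replicate 2. The lone array left at a dose was then assumed to vary like the other groups. The labels do not say that replicate numbers pair samples, and they were not treated as pairs. Same-numbered deviations correlated at -0.005 and -0.01 between control and each dose and at 0.39 between the doses, where both arrays of low controls carry number 1, and a batch shared by those arrays was not tested. With the replicate number as a block no gene passed (0 in each comparison) and every difference was the same. The median of the targets at 40 µM was -0.091 under the split block, -0.087 without the low arrays and -0.087 to 0.072 leaving out single arrays. At 2.5 µM it was 0.014 after quantile normalization, 0.084 with either filter on level, 0.0021 with the split as a block, 0.055 without the low arrays and 0.029 to 0.068 leaving out single arrays. Between the doses it was -0.097 without the low arrays and -0.115 to 0.044 leaving out single arrays.

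Differences changed sign for small values and also for Sat1, Pcna, Rpl5 and Zmat3, which stood at 0.75, 0.63, 0.52 and -0.36 at 40 µM with all arrays, and the cause was not tested. Without both low arrays, with a lone array left at each dose, several genes passed with the opposite sign. These were Sat1 (-0.75), Pcna (-0.26) and Ei24 (0.41) at 40 µM and Cdkn1a (-0.23) at 2.5 µM. Leaving out single arrays, differences from control at 40 µM ranged for Cdkn1a from -0.10 to 0.19, Mdm2 from -0.11 to 0.30, Trp53inp1 from -0.20 to 0.15, Ccna2 from -0.27 to 0.49, Cdkn1b from -0.11 to 0.15, Ei24 from -0.48 to 0.41, Pcna from -0.26 to 1.53, Rchy1 from -0.26 to 0.56, Rpl5 from -0.17 to 1.20, Sat1 from -0.75 to 2.25, Trp63 from -0.024 to 0.37 and Zmat3 from -0.93 to 0.20. At 2.5 µM they ranged for Cdkn1a from -0.23 to 0.29, Mdm2 from -0.13 to 0.11, Phlda3 from -0.21 to 0.028, Pmaip1 from -0.37 to 0.42 and Trp53inp1 from -0.093 to 0.36. Between the doses they ranged for Bbc3 from -0.15 to 0.14, Ccng1 from -0.39 to 0.51, Cdkn1a from -0.25 to 0.27, Mdm2 from -0.10 to 0.31, Pmaip1 from -0.68 to 0.11 and Trp53inp1 from -0.39 to 0.065. Ranges that kept their sign but moved by over 1.5 times were, at 40 µM, 0.23 to 1.13 for Ccng1, -0.37 to -0.075 for Bbc3, -0.48 to -0.040 for Pmaip1, -0.58 to -0.21 for Phlda3, -0.35 to -0.090 for Hipk2, 0.35 to 0.97 for Gadd45a and -0.33 to -0.067 for Plk1. At 2.5 µM they were -0.34 to -0.083 for Bbc3 and 0.16 to 0.42 for Sesn1, and between the doses -0.49 to -0.12 for Phlda3. Under the array split block, signs turned at 40 µM for Cdkn1a (-0.16), Mdm2 (-0.065), Trp53inp1 (0.17), Ccna2 (-0.14), Ei24 (0.23), Rchy1 (-0.15), Rpl5 (-0.13) and Sat1 (-0.30), and at 2.5 µM for Cdkn1a (-0.17). Without both low arrays they turned at 40 µM for Cdkn1a (-0.10), Mdm2 (-0.11), Trp53inp1 (0.15), Ccna2 (-0.27), Ei24 (0.41), Pcna (-0.26), Rchy1 (-0.26), Rpl5 (-0.17), Sat1 (-0.75) and Zmat3 (0.20), at 2.5 µM for Cdkn1a (-0.23), and between the doses for Bbc3 (0.074) and Ccng1 (-0.34). After quantile normalization they turned for Cdkn1a at 2.5 µM (-0.024), Cdkn1b at 40 µM (-0.023) and Bbc3 between the doses (0.050). Without both low arrays Phlda3 passed at 40 µM, Cdkn1a, Ccng1 and Trp53inp1 at 2.5 µM and Pmaip1 between the doses (limma, smallest adjusted p of a target 0.0439, 0.00514 and 0.0287), in fits in which 19.2%, 20.5% and 15.2% of all genes passed.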
